A study of Jatropha curcas with 10 samples.

Results

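The 60 genes described here had a short rise at 6 h after gibberellin, measured in inflorescence meristems of the oil plant Jatropha curcas. The members were chosen by their measured course, from 28447 gene IDs followed over 5 times. L stands for log2(RPKM + 1), where RPKM is reads scaled to gene length and to library depth, and a gene had to average 5 RPKM or more across the 10 libraries. Its mean L had to be higher at 6 h than at 0 h, and by 12 h and by 48 h the difference from 0 h had to be below 0.5 of that at 6 h. In all, 14258 genes reached the minimum mean and 2083 of them met the conditions on the course. These were ranked by the lower of the 6 h values minus the higher of the 0 h values, and the top 60 were taken, so rank 1 has the widest gap between the 6 h and 0 h libraries. The levels at 0, 6, 12 and 48 h thus chose the members and are given as a description. The 24 h libraries entered the rule only through the minimum mean, and not through the conditions on the course or the ranking. Any comparison of them with 0 h still contains 0 h libraries chosen for being low.

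The 5 groups are meristems of 3-year-old plants sampled at 0, 6, 12, 24 and 48 h after exogenous GA3 (gibberellic acid), with 2 libraries of total RNA per time, called library 1 and library 2. Every group carries the GA3 label, the 0 h one included, and no strain or genotype is given. How and at what dose GA3 was given is not stated in the sources used here. Since no group of untreated plants matches the later times, the effect of GA3, the hours elapsed and the hour of the day cannot be told apart. Whether both libraries of a time stem from separate plants is not labelled, so the p-values reflect just the variation from library to library, possibly a technical one. In bulk tissue, fewer cells of a type and less RNA per cell cannot be told apart either.

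Gibberellins are growth hormones. In the cell a gibberellin binds the receptor GID1, which leads to the breakdown of DELLA proteins, repressors that hold growth-related transcription factors in check. Plants generally answer added gibberellin with feedback on the enzymes that make and inactivate it. In woody and perennial plants gibberellin is known for its part in the growth of inflorescences and in the timing of flowering. The deposited tables do not pair the gene IDs with names, and 0 of the IDs matched the 28617 genes of the RefSeq table used here (assembly XTBG_Jcur_1.0). No role, tissue marker or genome position is therefore given for any member, and members are mostly called by their rank.

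The libraries held 15934189 to 24448219 reads, recovered from the RPKM values. The libraries of number 1 and number 2 differed along gene length: the Spearman correlation over the 17403 genes tested between coding length and the difference of library 1 minus library 2 was 0.41 (0 h), -0.36 (6 h), -0.57 (12 h), -0.48 (24 h) and -0.49 (48 h). Among the 60 members it was 0.26, -0.19, -0.39, -0.45 and -0.44 at these times, over genes that share the same libraries. With a lowess correction for coding length in each library, fitted with the library number as a replicate block over all 10 libraries, 0 members were called at 24 h against 0 h (limma, a linear model across all genes tested, at a Benjamini-Hochberg adjusted p under 0.05) and their median change was -0.14 (log2). The same block without the correction gave 0 members and -0.13. For 24 h against 6 h, 48 members were called lower with the correction and 47 with the block alone. Of all 17403 genes tested, 269 and 174 were called lower in these fits. The members had been chosen for high 6 h libraries, so these counts are a description. At 6 h the members' median difference of library 1 minus library 2 was 0.01 on the log2 scale, so neither 6 h library was the higher one across the set.

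All 60 members were JCGZ locus tags, and 0 were among the 498 other IDs (3.49% of the genes averaging 5 RPKM or more). Their coding lengths ran from 255 to 3507 bases, with a median of 969 and quartiles of 690.75 and 1506.75. For all JCGZ genes with such a mean, the median was 1098 bases and the quartiles 690 and 1635. Of the members, 7 had an ID number within 10 of that of another member, and 4 of them formed pairs with consecutive numbers. How often other genes of the series lie as close in number was not counted, so nothing is read from this. Whether ID numbers follow the order of genes on the chromosomes was not examined here.

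At 6 h the members spanned a wide range of levels. Their mean level was 11.9 to 5591 RPKM, with a median of 48.0, against a median of 8.93 RPKM (0 h). Before the rise, 6 members were under 1 RPKM, 26 between 1 and 10, 25 between 10 and 100, and 3 above 100. The difference of 6 h from 0 h was 1.14 to 6.41 on the log2(RPKM + 1) scale, with a median of 1.94 and quartiles of 1.64 and 2.61. All genes tested had a median of 0.04. A difference of at least 3 on that scale was seen in 10 members and of at least 2 in 26. The members with the widest gaps started low, which a ranking by that gap favours. Ranks 1 to 10 had a median of 0.744 RPKM (0 h), ranks 11 to 30 one of 8.67 RPKM and ranks 31 to 60 one of 14.8 RPKM. On the same scale of levels their medians at 6 h were close to each other, at 46.7, 44.5 and 50.7 RPKM. Of the top 10, ranks 1 to 6 and 8 reached the minimum mean only through 6 h, so nothing is read from this order.

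**Figure D1:**
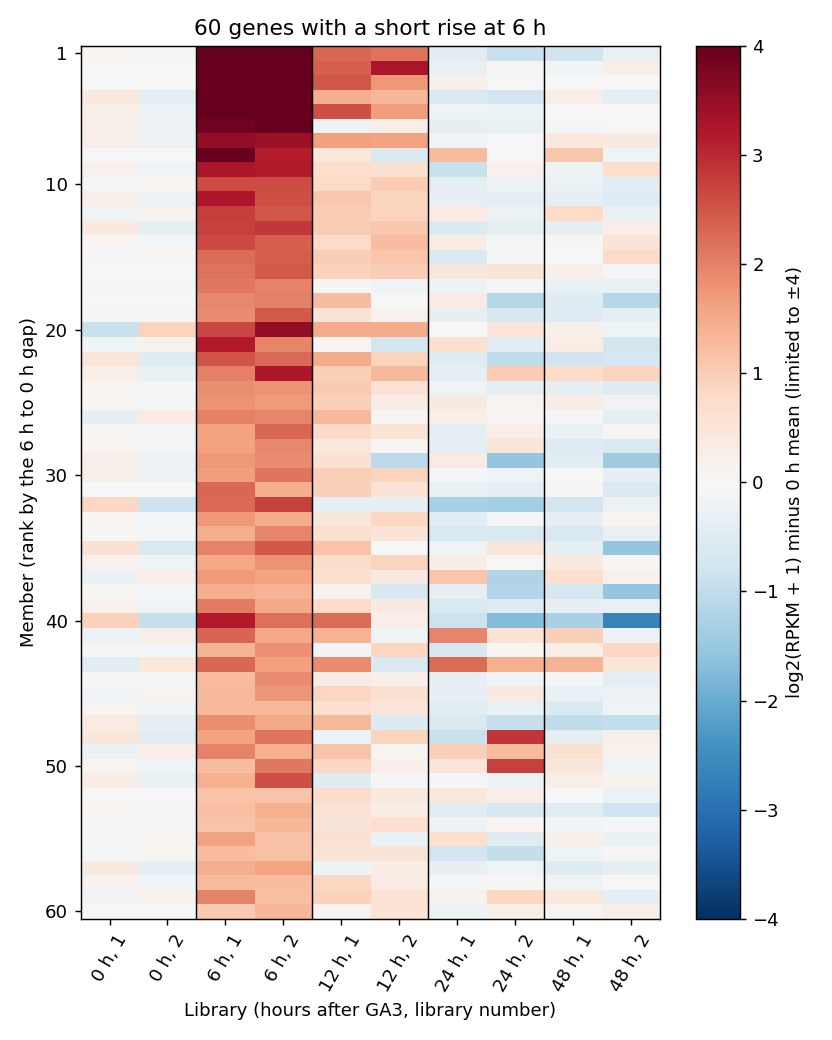
The 60 members from rank 1 (top) to rank 60 (bottom) in each library, with columns in order of time; colour is log2(RPKM + 1) minus the gene's 0 h mean, limited to ±4. Both 6 h columns are red in every row by the choice of members, the 12 h columns are paler, and the 24 h and 48 h columns are near white except for single rows such as those of ranks 40, 43, 48 and 50.

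JCGZ_01274, the member of rank 1, has 387 coding bases. It was at 1.59 and 1.35 RPKM (0 h), 284.2 and 153.7 (6 h), 11.02 and 10.01 (12 h), 0.856 and 0.317 (24 h), and 0.422 and 1.01 (48 h). Those values stand on 11 and 10 reads at 0 h, 1753 and 1066 (6 h), 88 and 74 (12 h), 6 and 3 (24 h), and 3 and 7 (48 h). The mean at 6 h was 149-fold that at 0 h, and the 24 h and 48 h libraries all lay below those of 0 h, at levels where a library holds at most 7 reads. JCGZ_04764, the member of rank 2 (1848 bases), was at 0.423 and 0.480 RPKM (0 h), 71.3 and 88.8 (6 h), 6.63 and 12.9 (12 h), 0.179 and 0.487 (24 h), and 0.354 and 0.752 (48 h). Its 6 h mean was 177-fold the 0 h mean. From 24 h on its libraries lay around the 0 h level, while both 12 h libraries were still above it.

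The gene at rank 3 (705 bases) had no read in either 0 h library. Its level was 47.7 and 24.9 RPKM (6 h), 4.54 and 2.30 (12 h), 0.157 and 0 (24 h), and 0 in both libraries (48 h). That is 536 and 315 reads (6 h), 66 and 31 (12 h), and 2 and 0 (24 h). Against a limit of 3 reads per 0 h library, which is 0.237 RPKM in the shallower one, the 6 h mean was at least 153-fold higher. Such limits cover counting error only. Only at 6 h and 12 h did this gene exceed the limit of 3 reads.

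The gene at rank 4 (354 bases) was at 1.26 and 0.295 RPKM (0 h), 39.7 and 40.7 (6 h), 3.70 and 3.25 (12 h), 0.156 and 0 (24 h), and 1.077 and 0.314 (48 h). Outside 6 h and 12 h these are 0 to 8 reads per library. Rank 5 (2805 bases) was at 0.994 and 0.428 RPKM (0 h), 47.0 and 26.1 (6 h), 9.14 and 4.35 (12 h), 0.492 and 0.467 (24 h), and 0.680 and 0.694 (48 h). Rank 6 (2058 bases) was at 0.542 and 0.152 RPKM (0 h), 18.6 and 30.3 (6 h), 0.165 and 0.611 (12 h), 0.054 and 0.119 (24 h), and 0.291 and 0.324 (48 h). These 3 genes shared a steep course, with 6 h means 51.7-fold, 51.4-fold and 70.4-fold the 0 h means. They differed at 12 h: the 12 h libraries of rank 6 overlapped those of 0 h, whereas those of ranks 4 and 5 lay clearly above them.

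Rank 7 (1179 bases) was at 4.64 and 3.32 RPKM (0 h), 56.8 and 51.8 (6 h), 14.4 and 14.1 (12 h), 3.56 and 4.02 (24 h), and 5.55 and 5.28 (48 h). Its libraries of a time lay close together, and the 24 h ones fell between those of 0 h. Rank 8 (549 bases) was the member of the top 10 whose 6 h libraries differed most, at 88.2 and 13.1 RPKM, against 0.610 and 0.570 (0 h). Its library 1 was the higher one at 12, 24 and 48 h too, with 1.15 against 0.095 RPKM in library 2 (12 h), 2.81 against 0.596 (24 h), and 2.38 against 0.405 (48 h). Library 2 of 12 h holds 1 read of this gene and that of 48 h holds 4.

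Rank 9 (1065 bases) was well expressed before the rise. It was at 38.9 and 29.9 RPKM (0 h), 333.9 and 314.8 (6 h), 55.6 and 53.1 (12 h), 17.8 and 38.97 (24 h), and 29.8 and 56.4 (48 h). Rank 10 (567 bases) was at 5.90 and 6.53 RPKM (0 h), 43.0 and 42.6 (6 h), 11.5 and 13.5 (12 h), 4.48 and 5.26 (24 h), and 4.996 and 4.32 (48 h). In both genes the 6 h libraries lay close together, with means 9.43-fold and 6.89-fold those of 0 h, and both 12 h libraries lay above both 0 h libraries. The 24 h and 48 h libraries of rank 9 overlapped those of 0 h, while those of rank 10 all lay slightly below them.

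**Figure D2:**
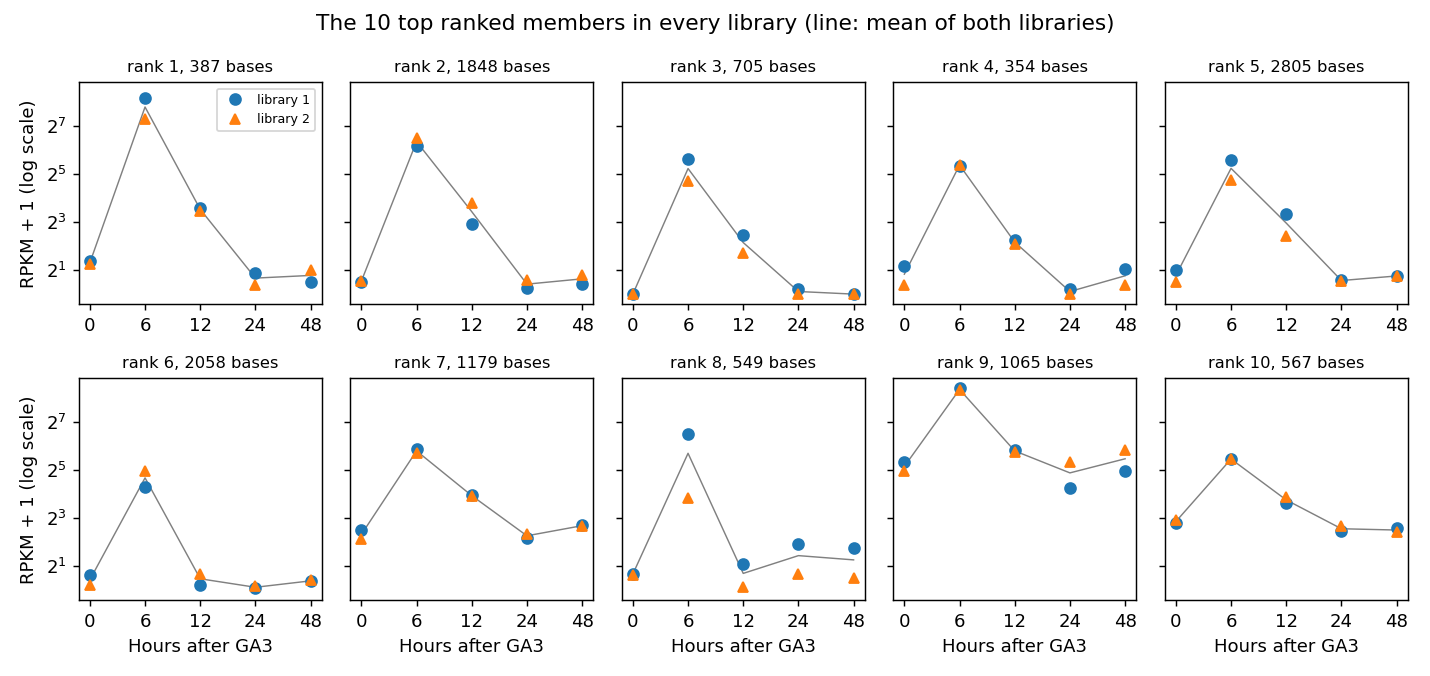
Level of the members of ranks 1 to 10 in each of the 10 libraries, as RPKM + 1 on a log axis, against hours after GA3 (axis not to scale); circles are library 1, triangles library 2, and the line joins the mean of both. All 10 peak at 6 h by the choice of members; rank 8 shows the widest spacing at 6 h (88.2 and 13.1 RPKM) and the 12 h libraries of rank 6 (0.165 and 0.611 RPKM) overlap those of 0 h.

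The most abundant member was rank 20 (507 bases), named here after its values had been seen. It was at 337.2 and 1148 RPKM (0 h), 3965 and 7217 (6 h), 1726 and 1739 (12 h), 635 and 877 (24 h), and 716 and 551 (48 h). Every 6 h and 12 h library lay above both 0 h libraries, and the 24 h and 48 h libraries lay between the 0 h ones, which differed from each other by more than those of any later time on the log scale. In share of the library's reads the whole set made up 0.161% ± 0.021 (0 h), 0.788% ± 0.13 (6 h), 0.276% ± 0.029 (12 h), 0.181% ± 0.025 (24 h) and 0.146% ± 0.011 (48 h), each with the SD of n = 2. Without rank 20 the shares were 0.124% ± 0.0078, 0.505% ± 0.012, 0.188% ± 0.030, 0.143% ± 0.016 and 0.114% ± 0.0049. Rank 20 was thus a large part of the set's reads at 6 h, and the course of the sum was alike with and without it.

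At the lower end of the ranking, rank 60 (2022 bases) was at 31.5 and 38.2 RPKM (6 h), against 14.3 and 14.9 (0 h), a gap of 1.04 on the log2 scale. The first gene outside, rank 61 (918 bases), was at 66.5 and 71.6 RPKM (6 h), against 28.98 and 32.2 (0 h), a gap of 1.02. On the condition on 12 h, the highest member kept 49.9% of its 6 h difference, and the lowest gene with as large a gap that was left out kept 50.2%. The lowest mean among members was 5.11 RPKM (rank 6), and 14 genes that met all else were left out by a mean of up to 4.93 RPKM. All 60 members passed the filter of the tests (a mean of at least 1 RPKM), but 13 averaged under 5 RPKM over the other 8 libraries and so met the rule's minimum only through 6 h. For 2 of these, ranks 3 and 6, that average was under 1 RPKM, so they passed the filter of the tests only through 6 h too, and at other times they had little room to move. Of 170 genes with a gap at least as wide as that of rank 60, 110 failed the condition on 12 h.

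The limma fit called 32 of the 60 members higher at 6 h than at 0 h (limma, Benjamini-Hochberg adjusted p under 0.05 over 17403 genes), beside 0.483% of all genes tested. Since this contrast chose the members, nothing is read from that count. With 0 h library 1 or 2 left out, the members' median change at 6 h was 2.01 or 1.82 (log2). With 6 h library 1 or 2 left out, it was 1.98 each time. In these fits, and without either 48 h library, fewer members and fewer of all genes were called higher.

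By 12 h most of the rise was gone, as the rule required. The members lay at a median of 0.61 above 0 h on the log2(RPKM + 1) scale, with quartiles of 0.37 and 0.96, against 0.08 for all genes tested. They kept a median of 34.3% of the 6 h difference on that scale. In 43 members the share kept was between 25% and the limit of the rule, in 10 between 0 and 25%, and in 7 the mean L at 12 h was below that at 0 h. The median share kept was much alike along the ranking, at 34.6% in ranks 1 to 10, 36.2% in ranks 11 to 30 and 32.1% in ranks 31 to 60. Both 12 h libraries lay above both 0 h libraries in 39 members, beside 23.0% of all genes tested, a contrast the rule used. Limma called 5 members higher at 12 h than at 0 h, beside 0.241% of all genes tested. The members' median change at 12 h was 0.65 or 0.60 without 0 h library 1 or 2. It was 0.51 or 0.82 without 12 h library 1 or 2. In these fits, and without any 1 library of 24 h or 48 h, fewer members and fewer of all genes were called higher.

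The 7 members with a mean L at 12 h below that at 0 h were those of ranks 8, 17, 21, 29, 32, 38 and 51. In none of the 60 members did both 12 h libraries lie below both 0 h libraries. The ranking favoured low 0 h libraries and no share over all genes is given beside it, so nothing is read from this. Rank 17 (699 bases), named here after its values had been seen, shows this course with close libraries. It was at 10.9 and 11.6 RPKM (0 h), 51.8 and 47.9 (6 h), 12.0 and 9.81 (12 h), 9.63 and 10.8 (24 h), and 8.96 and 8.91 (48 h). In this gene the 6 h libraries stood alone, and at 12 h its libraries lay on either side of those of 0 h.

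**Figure D3:**
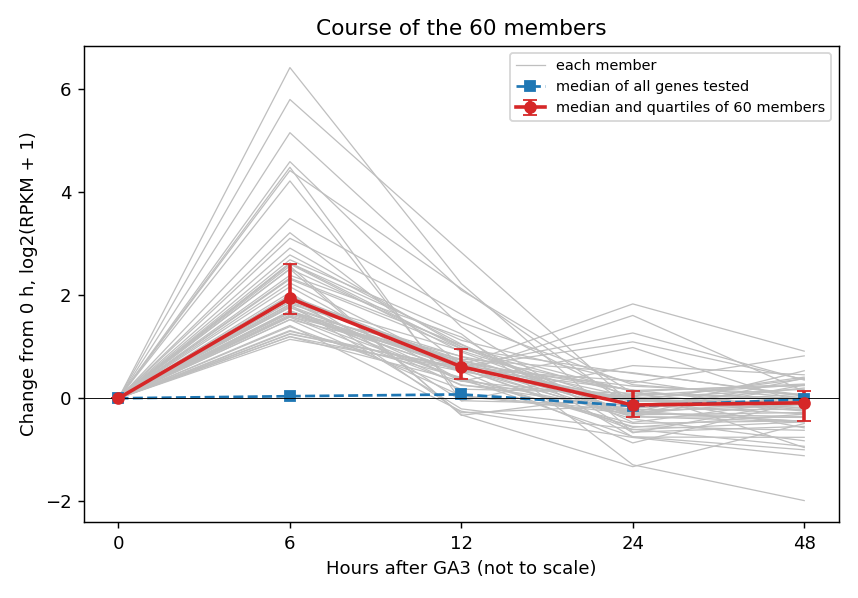
Change of each of the 60 members from its 0 h mean, in log2(RPKM + 1), at each time (axis not to scale); grey lines are members, red points with bars the median and quartiles of the members, and blue squares the median of the 17403 genes tested. The members' median is 1.94 (6 h), 0.61 (12 h), -0.13 (24 h) and -0.09 (48 h), and at 24 h it meets that of all genes (-0.15).

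At 24 h, a time that the rule used only in the minimum mean, the members' levels were mostly near those of 0 h, whose libraries had been chosen for being low. The members had a median change of -0.13 from 0 h (log2), with quartiles of -0.37 and 0.14, and all genes tested had a median of -0.15 with quartiles of -0.40 and 0.08. Against that shift of all genes, the members' median lay 0.02 higher. By library, the members' median was -0.24 in library 1 and -0.10 in library 2 of 24 h, and that of all genes was -0.23 and -0.05. Within 0.5 (log2) of the 0 h level were 42 members (70.0%), and 78.7% of all genes averaging 5 RPKM or more. Without ranks 3 and 6 the median was -0.13 and 40 of 58 members (69.0%) lay within 0.5. Without all 13 members that averaged under 5 RPKM outside 6 h, it was -0.06, with 34 of 47 members (72.3%) within 0.5. The 110 genes with as wide a gap that stayed high at 12 h had a median of 0.02 (24 h), with quartiles of -0.27 and 0.48; the difference between these genes and the members was not tested.

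At 24 h, limma called 0 of the 60 members against 0 h (0.0% of the 17403 genes tested in either direction). An unadjusted p under 0.05 was found for 6 members, beside 3.3% of all genes tested, and with voom on the recovered reads 0 genes were called. Both 24 h libraries lay below both 0 h libraries in 20 members (33.3%), beside 21.2% of all genes, and above them in 8 (13.3%), beside 9.02% of all genes. With every library set to a common median, 9 members lay below and 9 above (15.0% each), beside 14.0% and 15.4% of all genes, so at that scaling no surplus of lower over higher members was left. With quantile normalization, 13 lay below (21.7%) and 14 above (23.3%), beside 15.1% and 15.4% of all genes, so both shares exceeded those of all genes. A p above the threshold does not show that a member was back at its 0 h level. Over the 60 members the standard errors of the change at 24 h ran from 0.22 (rank 54) to 1.03 (rank 48) on the log2 scale. For the changes printed below with an SE they were 0.42 to 0.84.

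The members lowest at 24 h against 0 h were JCGZ_08319 and JCGZ_22533. JCGZ_08319 (3507 bases, rank 32) was at 23.4 and 6.62 RPKM (0 h), 65.0 and 89.9 (6 h), 9.97 and 9.84 (12 h), 4.52 and 4.36 (24 h), and 7.14 and 10.6 (48 h). All 4 libraries of 24 and 48 h lay below the higher 0 h library, and both 24 h libraries lay below both of 0 h. The change at 24 h was -1.33 ± 0.50 (log2, SE; limma adjusted p = 0.951). JCGZ_22533 (738 bases, rank 40) was at 14.6 and 3.39 RPKM (0 h), 73.1 and 37.3 (6 h), 37.6 and 9.01 (12 h), 3.59 and 1.496 (24 h), and 2.36 and 0.301 (48 h). Library 1 was the higher one at every time, and the change at 24 h was -1.29 ± 0.84 (log2, SE; limma adjusted p = 0.951). In both genes the 0 h libraries lay far apart, with library 1 the higher one.

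A few members were high again, or still, at 24 h. The difference from 0 h at 24 h was at least 50% of that at 6 h in 5 members, of ranks 41, 43, 48, 49 and 50, and under 25% in 53. Rank 43 (639 bases), the highest at 24 h, was at 28.1 and 51.6 RPKM (0 h), 193.2 and 121.3 (6 h), 142.6 and 25.1 (12 h), 183.5 and 103.9 (24 h), and 98.6 and 53.6 (48 h). Both 24 h libraries were above both 0 h libraries, close to the 6 h ones, and the log2 difference was 1.83 ± 0.75 (SE; limma adjusted p = 0.951). At 12 h its library 2 lay below both 0 h libraries while library 1 lay near the 6 h level, so its place among short rises rested on 12 h library 2.

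Rank 50 (765 bases) came next at 24 h. It was at 3.13 and 2.59 RPKM (0 h), 8.12 and 15.6 (6 h), 5.83 and 3.42 (12 h), 4.40 and 24.5 (24 h), and 4.27 and 2.40 (48 h), with a change at 24 h of 1.61 ± 0.68 (log2, SE; limma adjusted p = 0.951). Its 24 h mean rested on library 2, which exceeded both 6 h libraries, while library 1 lay a little above 0 h. Rank 48 (2061 bases), named after its values had been seen, also had a library 2 of 24 h above both 6 h libraries, at 12.96 and 188.0 RPKM (24 h), against 34.5 and 18.0 (0 h) and 77.7 and 113.7 (6 h), but its library 1 of 24 h lay below both of 0 h. In rank 49 (1089 bases), also named after the fact, the 24 h libraries lay closer together, at 7.55 and 9.61 RPKM, against 2.71 and 4.36 (0 h), a log2 difference of 1.09 ± 0.42 (SE; limma adjusted p = 0.951). Rank 41 (666 bases), named likewise, had 116.7 and 44.9 RPKM in the 24 h libraries, against 25.2 and 34.6 in those of 0 h, and 153.0 and 86.1 in those of 6 h. So library 2 alone reached the 6 h level in ranks 48 and 50, and in ranks 41 and 49 both 24 h libraries lay above those of 0 h.

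**Figure D4:**
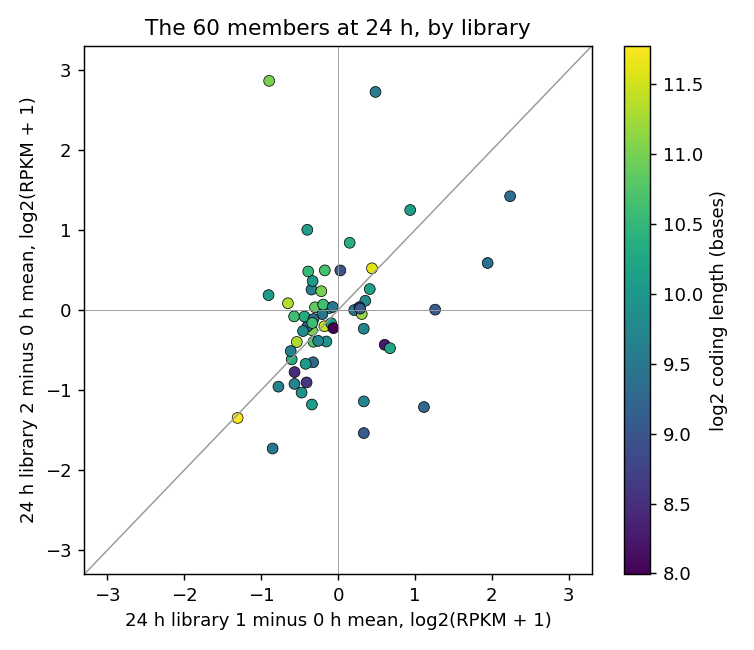
Each member's 24 h library 1 (horizontal) and library 2 (vertical) minus its 0 h mean, in log2(RPKM + 1), coloured by log2 coding length; the diagonal marks equal libraries. Most points lie near 0 on both axes, and the 2 points at the top are ranks 48 and 50, with 188.0 and 24.5 RPKM in library 2.

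Members of unlike length differed in how the 24 h libraries compared. Library 1 minus library 2 of 24 h had a median of 0.25 (log2) among the 20 shortest members (255 to 765 bases), 0.14 among the 20 of middle length (771 to 1179 bases) and -0.22 among the 20 longest (1200 to 3507 bases). Their median change from 0 h at 24 h was -0.03, -0.30 and -0.16, in no order of length. At 6 h, on the values that chose the members, it was 2.03, 1.81 and 2.05.

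From 6 h to 24 h the decline was large in most members. Both 24 h libraries lay below both 6 h libraries in 56 members, beside 28.1% of all genes tested, with ranks 41, 43, 48 and 50 as the exceptions. The limma fit called 31 members lower at 24 h than at 6 h, beside 0.563% of all genes tested. It called 51 with the library number as a replicate block among the 8 treated libraries, beside 2.9% of all genes under that block. That block was chosen after seeing the data. The members' median change from 6 h to 24 h was -2.12 or -2.07 without 6 h library 1 or 2. It was -2.22 or -2.14 without 24 h library 1 or 2. In each of these fits fewer members and fewer of all genes were called lower. Lower than at 6 h were also 7 members at 12 h, beside 0.121% of all genes, and 35 at 48 h, beside 0.534%, both counts of times the rule used. Under the block these were 25 members, beside 0.557% of all genes, and 54, beside 2.65%. The members had been chosen for high 6 h libraries, so all these counts are a description. Median changes without single libraries stand in the closing section.

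At 48 h most members lay near the 0 h level, which the rule fixed in part, by a limit on the upper side only. The members' median change from 0 h was -0.09 (log2), with quartiles of -0.44 and 0.15, against -0.02 for all genes tested. Within 0.5 of 0 h were 47 members (78.3%), and 83.1% of all genes averaging 5 RPKM or more. Without the 13 members that were low outside 6 h, the median was -0.13 and 36 of 47 members lay within 0.5. The highest share of the 6 h difference kept at 48 h was 46.2%, in rank 43. Both 48 h libraries lay below both 0 h libraries in 20 of the 60 members, beside 17.6% of all genes. They lay above them in 5 of the 60, beside 12.6%. The lower share was thus above that of all genes and the higher share below it. The other scalings used at 24 h were not tried on these counts. Limma called 0 members at 48 h (0.0% of genes, with 3 members and 4.56% of all genes at an unadjusted p under 0.05), and voom called 0 genes.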

How the data were processed

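RNA sequencing of 10 libraries (2 at each of 5 times) gave 1 deposited table per library with a value for each gene ID. Each table has a column of gene IDs and a column headed by the title of the library, and no unit is named per the file headers. The deposited values were taken to be RPKM, since each equals a whole read number divided by gene length and depth. The aligner Bowtie 0.12.2 is named per the submitters' processing notes, as is mm8, which is a mouse genome build, both with no role stated; how reads were counted and which gene models were used is not stated in the sources used here. Reads were recovered as the smallest whole numbers in the ratios of a gene's values, and 100.0% of the 203696 values above 0 were whole to within 0.01 reads. Of the JCGZ lengths recovered, 99.9% divide by 3, as coding lengths do. Recovery and test were checked on simulated data. The libraries of a time shared 0 identical values above 0.

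The test was limma 3.58.1 (R 4.3.3) on log2(RPKM + 1), a scale that understates changes of low genes. A single model with time as a factor covered the 17403 genes averaging 1 RPKM or more (eBayes with trend and robust moderation), and p-values were Benjamini-Hochberg adjusted within each comparison at a threshold of 0.05. The members, lists and tests were chosen with earlier results of these data known. The rule for named genes gave IDs for the 2 top ranks and the 2 members lowest at 24 h against 0 h, and ranks for the top 10, the 2 highest at 24 h, rank 60 and rank 61; other ranks were named after their values had been seen. Gene lists by product and tissue markers could not be applied without names. The library numbers paired the 8 treated libraries (correlations over genes of the difference of library 1 minus library 2 between times of 0.54 to 0.70), which comes from the data and not from a label.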

Additional observations from a re-analysis of the deposited data

Results flagged for a closer look

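For some members the change from 0 h was unlike at 2 times by a test of that difference itself (limma, adjusted p under 0.05 over all genes). Set against 6 h, this held for 7 members at 12 h, 31 at 24 h and 35 at 48 h, each with the lower level at the later time. With the library number as a replicate block among the 8 treated libraries, the counts were 25, 51 and 54. That block was chosen after seeing the data. It called 97, 505 and 461 of the 17403 genes tested lower, against 21, 98 and 93 without it. The members had been chosen for high 6 h libraries, and the rule used 12 h and 48 h too, so the counts describe them. Leaving out 6 h library 1 or 2 gave a median change from 6 h of -1.47 or -1.39 (log2) at 12 h. It was -2.12 or -2.07 at 24 h, and -2.28 or -2.21 at 48 h. Dropping 12 h library 1 or 2 gave -1.61 or -1.18 at 12 h. Dropping 24 h library 1 or 2 gave -2.22 or -2.14 at 24 h. Dropping 48 h library 1 or 2 gave -2.29 or -2.15 at 48 h. In each of these comparisons fewer members and fewer of all genes were called lower. The same held at 12 h and 48 h without either 0 h library, and at 12 h without either 48 h library.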

How the results depend on the processing

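The count of 0 members called at 24 h against 0 h held under all 20 alternatives, with a lowest adjusted p of 0.166 among them. The replicate block over all 10 libraries also gave 0 members and 0 genes. The numbers of 0 h and 24 h ran against each other (r = -0.32), and with numbers crossed at 0 h, a setting chosen after seeing the data, 1 gene was called and 0 members. The members' median change at 24 h (-0.13, log2) turned with the scaling, to 0.0054 with quantile normalization and 0.0413 at a common median, and spanned -0.24 to -0.10 on leaving out any 1 library (-0.24 without 0 h library 2 or 24 h library 2). Relative to all genes it was -0.04 to 0.02 throughout these settings. Leaving out the 13 members that averaged under 5 RPKM outside 6 h, also chosen after seeing the data, gave -0.06. The member counts that the rule fixed in part moved more. With all 10 libraries or only those of the 2 times, planned settings gave 26 to 48 at 6 h against 0 h. Against 6 h they gave 0 to 17 at 12 h, 9 to 48 at 24 h and 25 to 47 at 48 h. Settings chosen after seeing the data gave 53 at 6 h against 0 h, and 25, 51 and 54 against 6 h. Leaving out single libraries took the counts at 6 h against 0 h and 48 h against 6 h below these ranges. With a pseudocount of 0.1, minimum means of 1 or 10 RPKM, or quantile normalization in the rule, 54, 52, 44 and 56 of the 60 members stayed. Depth limits the members with few reads outside 6 h, where 3 reads at 1 kb are 0.123 to 0.188 RPKM.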
